A study of Homo sapiens with 12 samples.

Results

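The CD133 effect was compared between SNU216 and SNU601, 2 of the 3 gastric cancer cell lines that were sorted by CD133 and profiled on expression arrays. The comparison used 8 of the 12 arrays, chosen by the line in their labels, with 2 arrays for each of the 4 populations (SNU216 CD133+, SNU216 CD133-, SNU601 CD133+ and SNU601 CD133-). The quantity of interest is the interaction contrast, the log2 difference of CD133+ from CD133- cells in SNU216 minus the same difference in SNU601, and it was tested for 18936 of the 34595 genes with a value. Both lines are established cultures that were kept in the same serum-containing medium with no treatment. The cells were stained with the AC133 antibody, and the brightest 10% were collected as CD133+ and the dimmest 6% as CD133-, so the cells in between were not profiled. SNU216 stands for the arrays labelled SNU-216, and the design text of the series names SNU201 in its place. Whether the 2 arrays of a population came from separate sorts is not stated, and each p-value therefore measures only the spread between these arrays, which may be technical.

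CD133 is a pentaspan membrane glycoprotein of plasma membrane protrusions, encoded by PROM1, and it is widely used to isolate cells with stem-like properties from gastric and other tumors. Sorting by a surface protein separates the cells within a line by that protein. Its level, and the other genes that go with it, can differ from one line to another. A positive interaction contrast can arise from a rise in SNU216, from a fall in SNU601 or from both, so each gene is described by its change in each line first.

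The deposited intensities are normalized, background-subtracted and linear, and the values of the 8 arrays ran from -56.4 to 23394. Intensities under a floor of 32.7 were set to that floor before log2 was taken, and 12888 of the tested genes lay above it on all 8 arrays. PROM1 was measured at 9273 and 8773 against 2232 and 2219 in SNU216 and 4877 and 4677 against 1315 and 1324 in SNU601 (CD133+ against CD133- arrays, in intensity units). The fractions of each line did not overlap, and the change was 2.02 in SNU216 and 1.86 in SNU601 on the log2 scale, with an interaction of 0.16 (SE 0.08, adjusted p = 0.18). The sorted gene thus separated the fractions in the direction of their labels in both lines, and its change was not called different between them. All 10 epithelial markers lay above the floor on all 8 arrays. Of the leukocyte markers, LYZ, which gastric epithelium also expresses, was bright in SNU601, and of the endothelial markers ESAM rose there with CD133, at 3825 and 3582 against 2417 and 2166, while neither was above the floor in SNU216. At most 5 of 10 leukocyte and 2 of 10 endothelial markers exceeded the floor in a population, and PTPRC, CD3D, PECAM1 and VWF in none. The summed intensity of the 10 fibroblast markers, with negative values as 0, stayed between 33.1 and 201 on every array. The part of these markers in the results was not tested.

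In the interaction, 2890 genes (15.3% of the tested genes) were higher in SNU216 and 2835 (15.0%) were lower, at a limma adjusted p under 0.05. Within the lines, 2982 genes rose with CD133 in SNU216 (15.7%) and 2853 fell (15.1%), and in SNU601 1743 rose (9.20%) and 1611 fell (8.51%). Of the 1571 genes that were called in both lines, 1110 (70.66%) moved in opposite directions. The interaction was called for all 1110, which adds no support, because changes of opposite sign add up in this contrast. They are 527 genes that rose in SNU216 and fell in SNU601 (2.78% of the tested genes) and 583 that fell in SNU216 and rose in SNU601 (3.08%). The genes that moved together number 259 that rose in both lines (1.37%) and 202 that fell in both (1.07%), and for 363 of these 461 the size of the change was not called different between the lines. The remaining interaction genes are 2918 that were called in SNU216 alone, 1180 in SNU601 alone and 419 in neither line. With every array centred on its median, the shared split was 319 rises against 154 falls (67.4% rises, 56.2% in the values above). The falls of SNU601, the shared falls and the 527 opposite genes were fewer whichever SNU601 array was left out. Such a fit has 1 array in a population, so this loss does not point to any single array. Most of the opposite changes were small. At least 1.5-fold in each line were 53 and 70 of the opposite genes and 42 and 24 of the shared genes, in the order given above, and at least 2-fold in each line were 2, 7, 6 and 0. Over the 12888 genes above the floor on all arrays, the changes of both lines correlated at r = -0.13 across genes, which are not independent replicates.

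**Figure D1:**
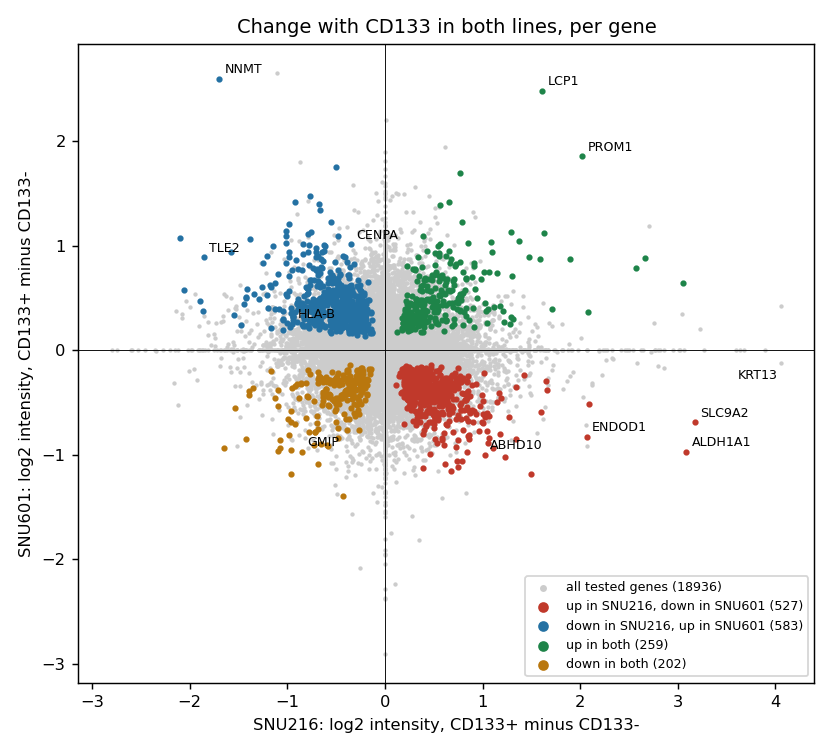
Log2 change of intensity from CD133- to CD133+ cells in SNU216 (x axis) and SNU601 (y axis), 1 point for each of the 18936 tested genes; coloured points passed an adjusted p under 0.05 in both lines. The 527 red and 583 blue genes moved in opposite directions and the 259 green and 202 orange genes moved together, and the horizontal line of points at 0 holds genes at the floor in SNU601.

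Genes that rose in SNU216 and fell in SNU601 were ranked by the smaller of their 2 changes among genes above the floor on all 8 arrays. Because genes were picked by their calls in these same arrays, fractions that do not overlap are no separate support, here and below. The first 10 were ABHD10, FABP5, ENDOD1, CCDC58, ALDH1B1, PHLPP2, TXNL4B, SMG1, ZNF83 and WDR5B. ABHD10, a mitochondrial hydrolase, was measured at 695 and 759 against 368 and 347 in SNU216 and 1079 and 1119 against 2204 and 2188 in SNU601. The fractions did not overlap in either line, and CD133+ cells held 2.03 times the CD133- level in SNU216 while the level fell 2-fold in SNU601, with an interaction of 2.02 (SE 0.09, adjusted p = 4.9e-06). FABP5, a carrier of fatty acids, was measured at 394 and 440.5 against 244 and 215 in SNU216 and 1032 and 1034 against 1851 and 1861 in SNU601, again without overlap, and its interaction was 1.71 (SE 0.12, adjusted p = 2.8e-05). SMG1, the kinase of nonsense-mediated mRNA decay, lay at 1289 and 1357 against 785 and 793 in SNU216 and 538 and 579.7 against 1016 and 1008 in SNU601, and these fractions were apart as well. ENDOD1, an endonuclease domain protein, changed by 2.07 and -0.83. CCDC58 changed by 0.85 and -0.82. These 5 genes stayed in their class under all 20 alternatives of processing and of leaving out an array. The other members of the 10 were less stable: ALDH1B1, a mitochondrial aldehyde dehydrogenase, kept both calls under 5 of the 20, TXNL4B and WDR5B under 7, ZNF83 under 16 and PHLPP2, a phosphatase of AKT, under 17.

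Genes that fell in SNU216 and rose in SNU601 were led, in the same ranking, by NNMT, NANOS3, TNFAIP8L1, STC1, REC8, HOXC8, HIST1H3G, TLE2, C1QTNF6 and PRRT3. NNMT, which methylates nicotinamide, lay at 40.3 and 95.1 against 199 and 202 in SNU216 and 925 and 898 against 140.1 and 161 in SNU601. Its 2 CD133+ arrays of SNU216 differ by more than the other pairs and both lie under the CD133- arrays, whereas in SNU601 the CD133+ arrays are far above, and the interaction was -4.30 (SE 0.48, adjusted p = 2.2e-04). REC8, a cohesin subunit of meiosis, was measured at 75.4 and 66.5 against 144 and 135 in SNU216 and 1297 and 1298 against 556 and 567 in SNU601. TNFAIP8L1, a member of the TNFAIP8 family, lay at 439 and 431 against 911 and 851 in SNU216 and 1007 and 975 against 438 and 461 in SNU601. The fractions of REC8 and TNFAIP8L1 did not overlap in either line, and their interactions were -2.19 (SE 0.12, adjusted p = 1.0e-05) and -2.16 (SE 0.16, adjusted p = 3.4e-05). The developmental regulators among the 10 were the homeobox gene HOXC8 (-1.21 in SNU216 and 0.90 in SNU601, log2), the Groucho co-repressor TLE2 (-1.85 and 0.89) and NANOS3, a germ cell RNA-binding protein (-1.39 and 1.06). NNMT, TNFAIP8L1, REC8, HIST1H3G and PRRT3 stayed in the class under all 20 alternatives, NANOS3, HOXC8 and C1QTNF6 under 19, TLE2 under 18 and STC1, a secreted glycoprotein, under 12. TLE2 lay barely above the floor in SNU216 CD133+ cells, at 33 and 32.7, so the size of its fall there is uncertain.

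The 5 largest positive interactions among genes above the floor on all 8 arrays, KRT13, SLC9A2, PCDH7, ENDOD1 and FAM69A, each came with a larger change in SNU216 than in SNU601. KRT13, a keratin of stratified epithelium, was measured at 2539 and 2751 against 161 and 157 in SNU216 and 13559.6 and 13609 against 15688 and 13899 in SNU601. It rose 16.6-fold with CD133 in SNU216, while in SNU601 it was bright in both fractions with a change of -0.12 (SE 0.07, adjusted p = 0.26), and the interaction was 4.18 (SE 0.09, adjusted p = 8.7e-08). SLC9A2, a sodium-proton exchanger of the gut, lay at 1076 and 1174 against 118 and 132 in SNU216 and 2232 and 2241 against 3598 and 3602 in SNU601, so that it rose in SNU216 and fell in SNU601. PCDH7, a protocadherin, changed by 3.23 in SNU216 and 0.20 in SNU601, and FAM69A by 2.72 and -0.02, with only the SNU216 change called for both. At the other end, after NNMT and TLE2, stood CXCL1, a chemokine, at 226 and 506 against 585 and 658 in SNU216 and 769 and 659 against 135 and 307 in SNU601. Its arrays scatter widely in SNU216 CD133+ and SNU601 CD133- cells, and its change was called in SNU601 and not in SNU216, where it was -0.87 (SE 0.41, adjusted p = 0.15). HOXB8 changed by -1.94 and 0.54 (SE 0.17, adjusted p = 0.056) in the same order.

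**Figure D2:**
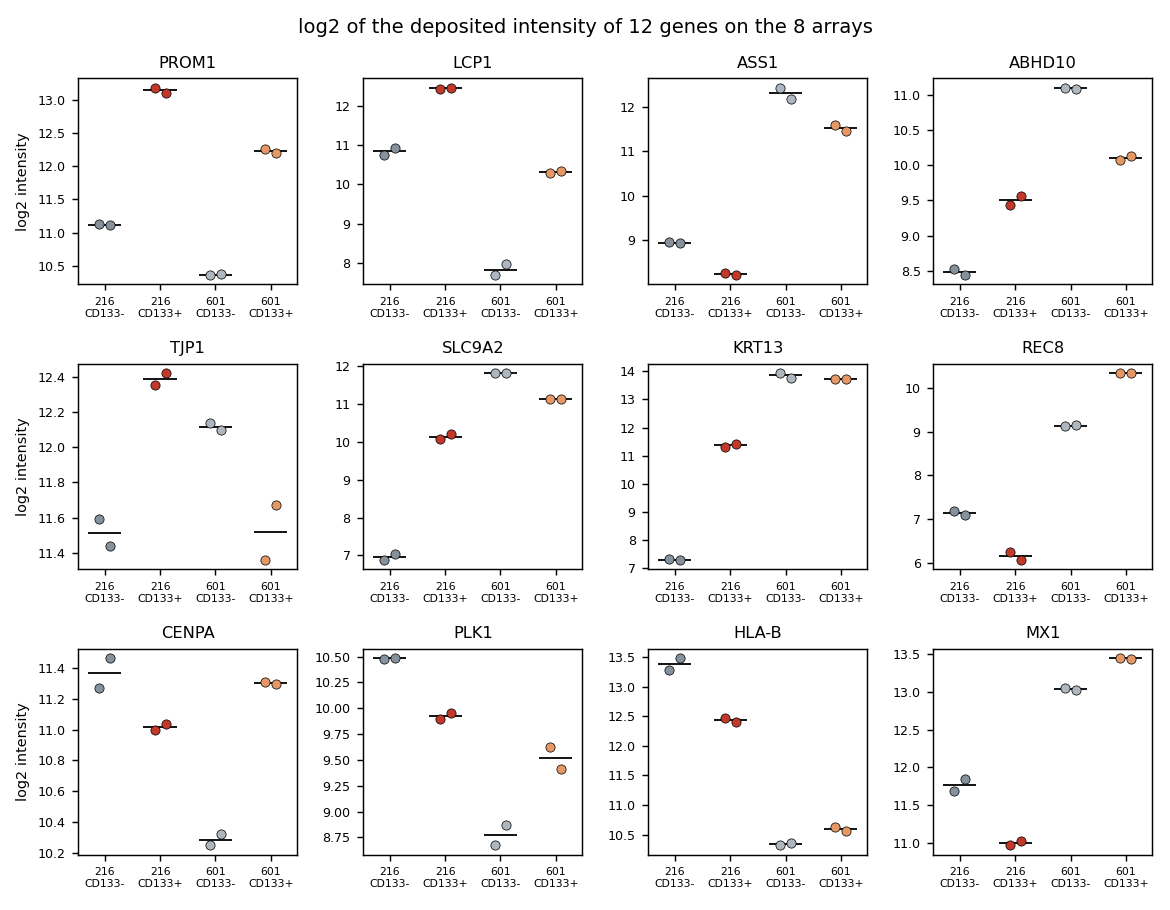
log2 of the deposited intensity of 12 genes on the 8 arrays, each point 1 array and each line the mean of the 2 arrays of a population. PROM1, LCP1 and ASS1 moved the same way in both lines; ABHD10, TJP1 and SLC9A2 rose in SNU216 and fell in SNU601; REC8, CENPA, PLK1, HLA-B and MX1 did the reverse, and KRT13 changed in SNU216.

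The 8 genes with the largest shared rise were PROM1, LCP1, CTGF, KRT23, NCRNA00120, PROK1, FGD3 and STXBP6. LCP1, the actin-bundling protein L-plastin, was measured at 5555 and 5641 against 1720.4 and 1950.3 in SNU216 and 1259 and 1286 against 207 and 249.5 in SNU601. The fractions were far apart in both lines, and the rise was larger in SNU601, with an interaction of -0.87 (SE 0.14, adjusted p = 0.0015). CTGF, a matricellular protein and target of YAP, lay at 8275 and 7594 against 3589 and 2929.7 in SNU216 and 1859 and 2049 against 878 and 899.9 in SNU601. Its fractions did not overlap, and the rises of 1.29 and 1.13 (log2) were not called different. KRT23, another keratin, rose by 1.63 and 1.13. FGD3, an activator of Cdc42, and STXBP6, which binds SNARE proteins, rose in both lines and more in SNU216, by 1.47 against 0.89 and by 1.58 against 0.88. These 5 and PROM1 kept both calls under all 20 alternatives, whereas NCRNA00120 and PROK1, the other 2 of the first 8, kept them under 10.

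The 8 genes with the largest shared fall were GMIP, SPNS3, DTX3L, MINK1, ASS1, RAB3B, MAP2K2 and KPNA7. ASS1, argininosuccinate synthase of the urea cycle and arginine synthesis, was measured at 305 and 297 against 494 and 491 in SNU216 and 3119 and 2808 against 5549.6 and 4687 in SNU601, and its interaction was 0.07 (SE 0.11, adjusted p = 0.68). RAB3B, a small GTPase of vesicle release, lay at 361 and 369.7 against 683 and 698 in SNU216 and 87.2 and 89.5 against 141 and 147 in SNU601. For both genes each CD133+ array lay under each CD133- array of its line. MAP2K2, the kinase MEK2, changed by -0.97 and -0.69, and GMIP by -0.85 and -0.97. Among the first 8, ASS1 and RAB3B kept both calls under all 20 alternatives, GMIP and the importin KPNA7 under 19, MAP2K2 and the ubiquitin ligase DTX3L under 16, the transporter SPNS3 under 9 and the kinase MINK1 under 8. CDC2, the mitotic kinase now named CDK1, rose in both lines, at 1886 and 1803 against 1035 and 954 in SNU216 and 2039 and 1838 against 1267 and 1113 in SNU601, and its interaction of 0.19 (SE 0.13, adjusted p = 0.35) was not called. OVOL2, a zinc finger repressor of mesenchymal genes, did not move together: it lay at 3348 and 3638 against 5968 and 5932 in SNU216 and 4917 and 4661 against 5081 and 4990.3 in SNU601, a fall in SNU216 alone, and its interaction was -0.70 (SE 0.10, adjusted p = 7.0e-04).

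Of the gene lists, mitosis held the most shared rises, while 30 of its members were lower in the interaction. Of 76 tested genes of the mitosis list, 28 rose and 6 fell in SNU216, against 15.7% and 15.1% of all tested genes. In SNU601 60 rose and 1 fell, against 9.20% and 8.51%. In all, 21 rose in both lines, against 1.37% of all tested genes, and 2 were higher in the interaction beside the 30 that were lower, against 15.3% and 15.0%. The median change was 0.18 in SNU216 and 0.42 in SNU601 on the log2 scale, where the median of all tested genes was 0 in each line. TOP2A, the topoisomerase that separates sister chromatids, rose in both lines, at 11500.3 and 12694 against 9549 and 9745 in SNU216 and 10881 and 11576 against 8463 and 8802 in SNU601, with an interaction of -0.05 (SE 0.09, adjusted p = 0.71). NUSAP1 and CKS1B, a spindle protein and a Cdk-binding subunit, rose in both lines as well, by 0.46 and 0.57 and by 0.35 and 0.35. The 6 mitotic genes that moved in opposite directions all fell in SNU216 and rose in SNU601. They are CENPA, the histone H3 of centromeres, the kinase PLK1, the kinetochore genes SPC24 and CENPE, the kinesin KIF22 and the spindle protein PSRC1. CENPA was measured at 2045 and 2104 against 2472 and 2823 in SNU216 and 2537 and 2517 against 1219 and 1281 in SNU601. PLK1 was measured at 951 and 989 against 1429 and 1434 in SNU216 and 791 and 683 against 409 and 467 in SNU601. Neither gene's fractions overlapped in either line, and the interactions were -1.36 (SE 0.12, adjusted p = 5.7e-05) and -1.31 (SE 0.17, adjusted p = 4.6e-04). The populations are bulk RNA, so a different share of dividing cells and a different amount of mRNA per cell cannot be told apart.

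The DNA replication list held fewer calls in the same directions. Of its 53 tested genes 19 rose and 5 fell in SNU216, against 15.7% and 15.1% of all tested genes, and 27 rose and 0 fell in SNU601, against 9.20% and 8.51%. In both lines 12 rose, against 1.37%. In the interaction 16 were lower (30.2%, against 15.0%) and 3 higher (5.66%, against 15.3%). The clamp loader subunits RFC4 and RFC5 rose in both lines, by 0.49 and 0.42 and by 0.56 and 0.53. The opposite genes were CHTF18, of a clamp loader for sister chromatid cohesion, at 1048 and 957 against 1539.7 and 1631 in SNU216 and 337 and 493 against 245 and 277 in SNU601, the chromatin assembly subunit CHAF1A (-0.41 and 0.89) and the licensing factor CDT1 (-0.34 and 0.54). TIPIN, a fork protection protein, and CCNE2, cyclin E2, went the other way, rising in SNU216 alone by 0.88 and 0.68.

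Many mitotic promoters hold the cell cycle homology region, a short element that keeps genes silent until late in the cycle, with a core written here as TTTGAA. These letters, searched on both strands of the 250 bases before the start in RefSeq promoters (GRCh38.p14), occur in 29 of the 61 mitosis genes with a promoter (47.5%), against 13.6% of all 27305 promoters and 1 of 44 DNA replication genes (2.27%). Within the last 120 bases before the start, a narrower window, the opposite genes SPC24, CENPE, KIF22 and PSRC1 lack them. So do TOP2A and NUSAP1, which rose in both lines. Letters further out are not seen in this window, and TOP2A is among the 29 genes that hold them within 250 bases. Those 120 bases are shown for PLK1 and CENPA, which moved in opposite directions, and for KIF23 and ZWINT, which rose in both lines. Only genes with a match are shown, with the letters or their reverse complement (TTCAAA) in capitals.
PLK1, chr16:23678769-23678888, plus strand: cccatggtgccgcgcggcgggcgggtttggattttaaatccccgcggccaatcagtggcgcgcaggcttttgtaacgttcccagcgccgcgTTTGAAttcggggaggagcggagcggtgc
CENPA, chr2:26785936-26786055, plus strand: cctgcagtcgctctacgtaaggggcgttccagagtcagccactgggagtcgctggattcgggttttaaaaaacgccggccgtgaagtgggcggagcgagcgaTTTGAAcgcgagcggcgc
KIF23, chr15:69414229-69414348, plus strand: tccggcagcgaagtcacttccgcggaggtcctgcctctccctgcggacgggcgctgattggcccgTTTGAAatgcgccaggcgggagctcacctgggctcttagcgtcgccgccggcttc
ZWINT, chr10:56361260-56361379, minus strand: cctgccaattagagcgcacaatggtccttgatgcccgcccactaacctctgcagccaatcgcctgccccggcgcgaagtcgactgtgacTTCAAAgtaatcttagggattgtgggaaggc
The 29 genes with the letters had a median change of 0.27 in SNU216 and 0.38 in SNU601, and those without them had 0.13 and 0.48. A match is only a description of these letters and was not tested as a site.

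Genes of antigen presentation differed between the lines in one direction. Of 25 tested members of the list, 17 (68.0%) were lower in the interaction, against 15.0% of all tested genes, and 0 were higher. In SNU216 17 fell and 0 rose, against 15.1% and 15.7% of all tested genes, with a median change of -0.47. In SNU601 6 rose and 1 fell, against 9.20% and 8.51%, with a median of 0.08. HLA-B, a class I heavy chain, was measured at 5648 and 5436 against 9969 and 11441 in SNU216 and 1589.6 and 1507 against 1280.3 and 1315 in SNU601. The fractions did not overlap in either line, and the interaction was -1.20 (SE 0.10, adjusted p = 5.9e-05). Of the same kind were the peptide transporter subunit TAP1 (-0.32 and 0.19) and the immunoproteasome subunit PSMB9 (-0.89 and 0.40). The list also holds class II genes, of which CD74, HLA-DMA and HLA-DRA fell in SNU216 and rose in SNU601. CD74, the invariant chain, lay at 34.5 and 28.6 against 103 and 97.2 in SNU216 and 225 and 236 against 116 and 124 in SNU601, and 1 of its 2 arrays of SNU216 CD133+ cells was at the floor. HLA-F and HLA-C fell in SNU216 by 0.98 and 0.76 and had no called change in SNU601. TAPBP, tapasin, fell in both lines. Probes of HLA genes can bind the transcripts of near-identical members, so single HLA genes are uncertain.

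Interferon-stimulated genes and NF-kB targets fell more often than they rose in SNU216. Of 49 tested interferon genes 12 were lower in the interaction (24.5%, against 15.0% of all tested genes) and 6 higher (12.2%, against 15.3%). In SNU216 8 rose and 17 fell, where 15.7% and 15.1% of all tested genes did. In SNU601 9 rose and 2 fell, against 9.20% and 8.51%. IRF1, IRF7, MX1 and IFI6 fell in SNU216 and rose in SNU601. MX1, an antiviral GTPase, was measured at 2008 and 2080.0 against 3305 and 3673 in SNU216 and 11158 and 11091 against 8503 and 8306 in SNU601, with an interaction of -1.17 (SE 0.08, adjusted p = 1.8e-05), and the transcription factor IRF1 changed by -1.16 and 0.61. The list was not uniform, since IFIT1, a sensor of viral RNA, rose in SNU216, at 3828 and 3746 against 1061 and 989 in SNU216 and 1340.0 and 1311 against 1243 and 1308 in SNU601, and the guanylate-binding protein GBP1 rose in both lines. Of 37 tested NF-kB targets and chemokines, 15 were lower (40.5%) and 6 higher (16.2%) in the interaction, and 2 rose and 13 fell in SNU216. NFKB1 itself was the opposite gene of the list, with changes of -0.45 in SNU216 and 0.28 in SNU601. CXCL2, whose sequence is close to that of CXCL1, and the adhesion molecule ICAM1 were called in the interaction (-1.92 and 1.39) and in neither line alone. LCN2, lipocalin, fell in both lines, by 1.40 and 0.43. LTB, C3 and TNF fell in SNU216 and were not above the floor in SNU601, so their interaction rests on SNU216 alone.

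Of 40 tested histone genes, 19 were lower and 3 higher in the interaction (47.5% and 7.50%, against 15.0% and 15.3% of all tested genes), with medians of -0.34 in SNU216 and 0.09 in SNU601. In SNU216 15 fell and 1 rose, against 15.1% and 15.7% of all tested genes. In SNU601 4 rose and 1 fell, against 9.20% and 8.51%. The 2 opposite genes were HIST1H3G, at 121 and 119 against 236 and 238 in SNU216 and 376 and 365 against 198 and 201 in SNU601, and H2AFX, the variant phosphorylated at DNA breaks. H2AFX lay at 2070.3 and 2069 against 3485 and 3161 in SNU216 and 1985 and 1692 against 1067 and 1260.0 in SNU601. Histone genes are near-identical in their coding sequence, and single members are uncertain here too. Of 27 tested genes of cholesterol synthesis and uptake, 10 were lower and 4 higher in the interaction (37.0% and 14.8%), with medians of -0.20 and 0.07. The HDL receptor SCARB1 fell in SNU216 and rose in SNU601, at 899 and 939 against 1661 and 1759 in SNU216 and 1439 and 1419 against 1161 and 1213 in SNU601, with an interaction of -1.16 (SE 0.07, adjusted p = 1.7e-05). Among the metallothioneins, zinc and copper binding proteins, MT2A, MT1A and MT1G fell in SNU216 and rose in SNU601, with MT2A at 9703 and 10115 against 15339 and 16138 in SNU216 and 1799.6 and 1735 against 1209 and 1112 in SNU601, while MT1X rose in SNU216 alone by 0.71. Metallothioneins are near-identical as well, and single members are uncertain.

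Notch pathway genes moved in both directions. Of its 23 tested genes 9 were lower and 3 higher in the interaction (39.1% and 13%, against 15.0% and 15.3% of all tested genes). The opposite genes were 2 that rose in SNU216 and 4 that fell there, against 2.78% and 3.08%. The target HES1 was measured at 101 and 116 against 237 and 237 in SNU216 and 2851 and 2915 against 2195 and 2186 in SNU601, with an interaction of -1.53 (SE 0.11, adjusted p = 2.5e-05). The target HES4 and the ligand JAG2 likewise fell in SNU216 and rose in SNU601, by -0.36 and 0.34 and by -0.69 and 0.62, as did the ubiquitin ligase DTX2. The ligand JAG1 did the reverse, at 416 and 426 against 215 and 227 in SNU216 and 1477 and 1413 against 1902 and 1721 in SNU601, and so did NUMB, an inhibitor of Notch, with 0.32 and -0.27. The receptor NOTCH1 and the glycosyltransferases LFNG and MFNG fell in SNU216 and had no called change in SNU601.

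In SNU601 11 of 26 tested intestinal markers fell and 0 rose, against 8.51% and 9.20% of all tested genes, with a median of -0.48. Since 13 of them were at the floor on all 4 SNU216 arrays, where the interaction only restates the change in SNU601, the count of 11 higher and 1 lower in the interaction is no separate result. Among the 3 markers above the floor on all 8 arrays, 2 were higher and 0 lower. CDH17, the liver-intestine cadherin, lay at 3068 and 2819 against 6485 and 6128 in SNU601, and TM4SF4, a tetraspanin relative, at 248 and 232 against 907 and 966. Neither was above the floor on any SNU216 array. TSPAN8 and CEACAM6, surface proteins of gut epithelium, instead rose in SNU216. TSPAN8 lay at 144 and 155 against 48.3 and 57.5 in SNU216 and 15207 and 15378 against 17300.1 and 15850.1 in SNU601. CEACAM6 lay at 164 and 165 against 9.64 and 8.45 in SNU216 and 14332 and 14799.5 against 15085 and 15835 in SNU601. CEACAM6 was not above the floor in SNU216 CD133- cells, so its rise there is at least 5.04-fold, and its change in SNU601 was -0.09 (SE 0.06, adjusted p = 0.4). CEACAM1, of the same family and similar in sequence, was the opposite gene, at 82.6 and 93.3 against 0.666 and -21.8 in SNU216 and 5923 and 6189 against 6931 and 7322 in SNU601, again not above the floor in SNU216 CD133- cells.

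Of 27 tested mucins and trefoil factors 10 were higher and 2 lower in the interaction (37% and 7.41%). The shares of all tested genes were 15.3% and 15.0%. For the 15 at the floor on all SNU216 arrays, the interaction only restates the change in SNU601. In SNU601 12 fell and 1 rose, against 8.51% and 9.20% of all tested genes. MUC5AC, the mucin of the gastric surface, was measured in SNU601 at 1648 and 1766 against 7876 and 6653, and TFF1, the trefoil peptide of the same cells, at 7941 and 8111 against 14781 and 15243. In SNU216 MUC5AC was dim, at 59.6 and 25.1 against 55 and 50.4, and TFF1 was at the floor. Among the 7 members above the floor on all 8 arrays, 1 was higher and 2 lower. MUC20 and MUC4, membrane mucins, fell in both lines, by 1.10 and 0.38 and by 0.88 and 0.46. AGR2, a disulfide isomerase needed for mucin folding, rose in SNU216 from 27 and 38.3 to 185 and 129 and changed by -0.33 (SE 0.14, adjusted p = 0.15) in SNU601.

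Of 51 tested genes of xenobiotic metabolism, a list that holds the aldehyde dehydrogenases, 17 were higher and 4 lower in the interaction (33.3% and 7.84%). The shares of all tested genes were 15.3% and 15.0%. Among the 30 members above the floor on all 8 arrays, 10 were higher and 2 lower. ALDH1A1, a retinaldehyde dehydrogenase used as a stem cell marker, was measured at 269.6 and 293 against 27.4 and 33.5 in SNU216 and 1036 and 959 against 1936 and 1977 in SNU601. It rose in SNU216 from about the floor, which 1 of the 2 CD133- arrays did not reach and the other barely passed, so that its change of 3.09 there and its interaction of 4.06 are lower bounds. In SNU601 it fell, with a change of -0.97 (SE 0.07, adjusted p = 1.4e-04). MGST1, a microsomal glutathione transferase, changed by 0.85 and -0.25. ALDH4A1 of proline breakdown went the other way, with -0.83 and 0.42, and ALDH7A1 rose in both lines. The list of stem cell markers had 4 genes higher and 6 lower of 29 tested (13.8% and 20.7%, near the shares of all genes). ALCAM and KLF4 were higher in the interaction (0.86 and 0.84), whereas LGR5, CXCR4 and TNFRSF19 rose in SNU601 and were at the floor in SNU216. PROM2, the paralog of PROM1, fell in both lines, at 594 and 589 against 836 and 931 in SNU216 and 2595 and 2816 against 3243 and 3343 in SNU601.

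Aminoacyl-tRNA synthetases, which charge tRNAs, were higher in the interaction for 13 of 33 tested genes (39.4%, against 15.3% of all) and lower for 4 (12.1%, against 15.0%). In SNU216 10 rose and 3 fell, against 15.7% and 15.1% of all tested genes, with a median of 0.08. In SNU601 2 rose and 9 fell, against 9.20% and 8.51%, with a median of -0.15. The 5 opposite genes were NARS, RARS, IARS2, RARS2 and EARS2, the last 3 mitochondrial enzymes. NARS, for asparagine, was measured at 2441 and 1972 against 1578 and 1593 in SNU216 and 2924 and 3730.1 against 5552 and 5098 in SNU601. IARS2, for isoleucine, lay at 8348 and 8442 against 6777 and 7214 in SNU216 and 5452 and 5549.7 against 6962 and 7088 in SNU601. The fractions of both genes were apart in each line. Of 76 tested mitochondrial ribosomal proteins 24 were higher and 14 lower in the interaction (31.6% and 18.4%), with 5 opposite genes that rose in SNU216 and 0 that fell, and their medians were close to 0 in both lines (0.01 and -0.02). The list of the unfolded protein and integrated stress response had 9 higher and 9 lower of 46 (19.6% each, near the 15.3% and 15.0% of all tested genes). The stress transcription factors ATF4, ATF3 and DDIT3 rose in SNU216 and fell in SNU601 (0.33 and -0.61 for DDIT3), while ATF5 and the isomerase PDIA4 did the reverse. The p53 targets counted 7 higher and 2 lower of 24 (29.2% and 8.33%), among them the stress cytokine GDF15, which lay at 309 and 320.3 against 265 and 256 in SNU216 and 4888 and 4990.3 against 7352 and 7335 in SNU601.

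Of 54 tested cell junction genes 15 were higher and 9 lower in the interaction (27.8% and 16.7%, against 15.3% and 15.0% of all tested genes), and CDH1, TJP1, DSC2, CLDN1 and GRHL2 rose in SNU216 and fell in SNU601. TJP1, the tight junction scaffold ZO-1, was measured at 5229.9 and 5489.6 against 3083 and 2775 in SNU216 and 2626 and 3264 against 4499.7 and 4380.2 in SNU601, with an interaction of 1.47 (SE 0.14, adjusted p = 9.0e-05). CDH1, E-cadherin, changed by 0.30 and -0.25, smaller but called in both. CLDN3, a claudin, did the reverse, at 2038 and 2173 against 3643 and 3742 in SNU216 and 291 and 330.3 against 183 and 228 in SNU601. In the TGF-beta and BMP list (8 higher and 6 lower of 31, or 25.8% and 19.4%), the receptor TGFBR2 and its effector SMAD3 rose in SNU216 and fell in SNU601, by 0.84 and -0.29 and by 0.66 and -0.35. The ligand BMP4 did the reverse, with -0.89 and 0.46, while BAMBI, a decoy receptor, rose in both lines but more in SNU216, at 1485 and 1382 against 368 and 314 in SNU216 and 13202 and 12261 against 9447 and 10331 in SNU601. Of 33 tested genes of the epithelial-mesenchymal transition 4 were higher and 7 lower (12.1% and 21.2%, near the shares of all genes), with EMP3 and PLAUR the opposite genes. EMP3 lay at 236 and 235 against 526 and 595 in SNU216 and 3515 and 3971 against 2138 and 2046 in SNU601. Keratins other than KRT13 and KRT23 included KRT17, which rose in both lines (1.71 and 0.40), and KRT86, which fell in SNU216 and rose in SNU601 (-0.67 and 1.35) and is close in sequence to other hair keratins.

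Of the remaining lists, some had about the shares of all tested genes, which were 15.3% higher and 15.0% lower, and others did not. Of 78 tested cytosolic ribosomal proteins 9 were higher and 5 lower (11.5% and 6.41%), of 37 heat shock genes 6 and 4 (16.2% and 10.8%), of 45 proteasome genes 9 and 5 and of 75 oxidative phosphorylation genes 15 and 8. Glycolysis and hypoxia genes had 14 higher and 9 lower of 43 (32.6% and 20.9%), NRF2 targets 11 and 6 of 35 (31.4% and 17.1%), glycan synthesis genes 16 and 10 of 52 (30.8% and 19.2%), and genes of MYC and G1 control 3 and 9 of 37 (8.11% and 24.3%). Among the 12888 genes above the floor on all 8 arrays 2335 were higher and 2412 lower. Of the 9259 of these with a symbol matched to RefSeq, 21% were higher and 20.8% lower. For lists made mostly of such genes, here and above, these shares are the closer comparison. The Wnt list had 8 lower and 4 higher of 21 (38.1% and 19%), with 8 of its genes at the floor on all SNU216 arrays. Among these was MMP7, a matrix protease that rose in SNU601, at 999 and 1078 against 270.5 and 288. Of the 11 Wnt genes above the floor on all 8 arrays, 3 were higher and 3 lower.

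**Figure D3:**
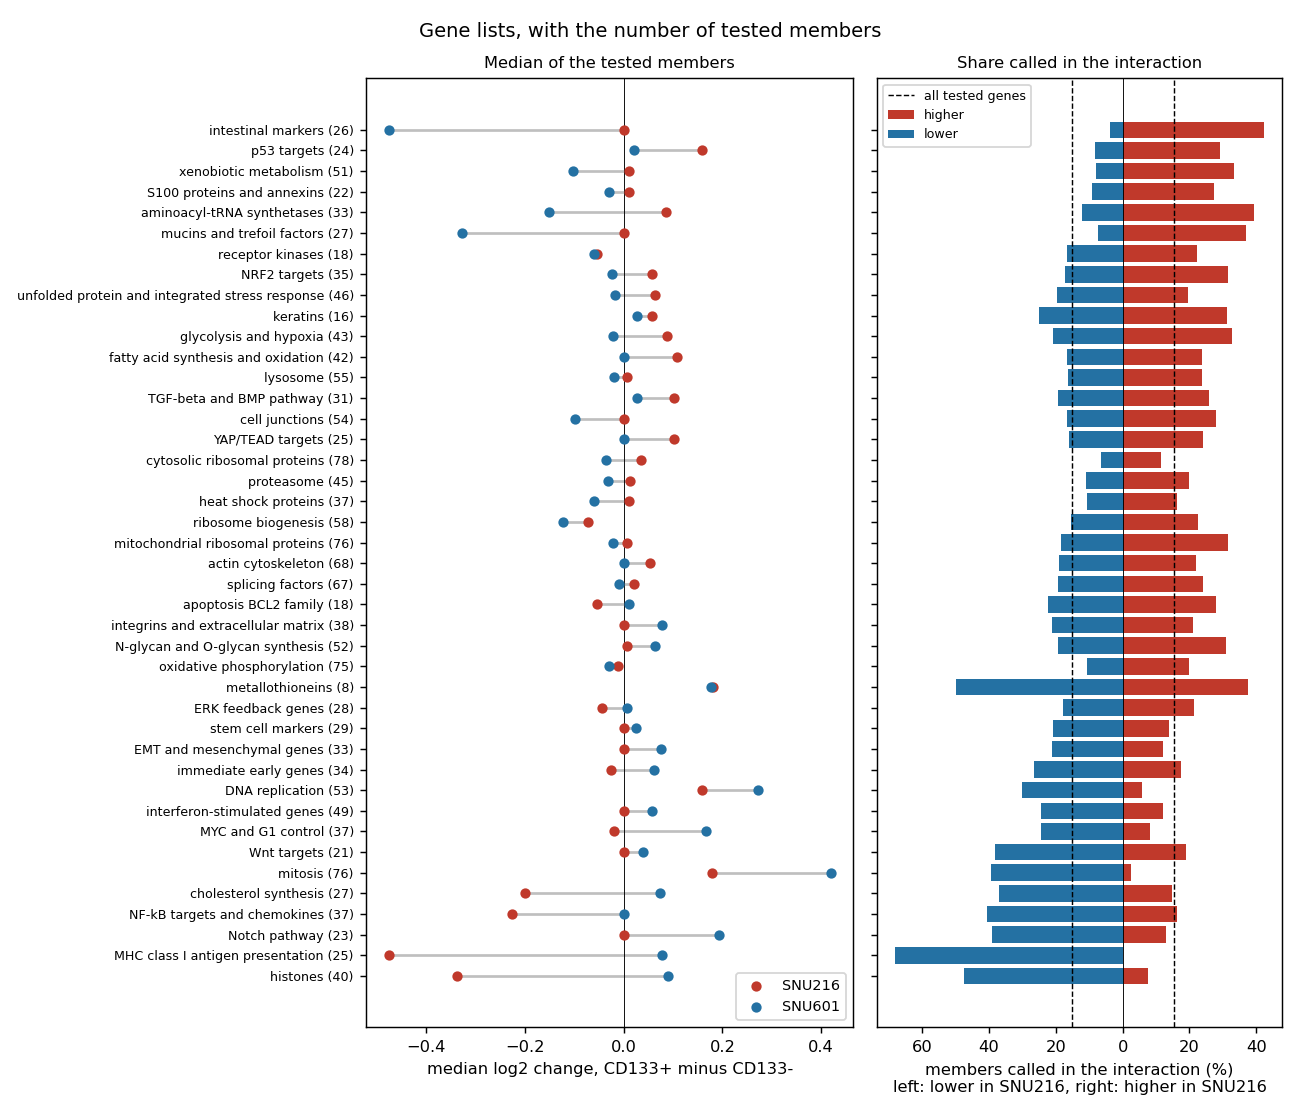
Left, the median log2 change from CD133- to CD133+ cells of the tested members of each gene list in SNU216 (red) and SNU601 (blue), with the number tested in parentheses. Right, the percentage of tested members called higher (red) or lower (blue) in the interaction, with the shares of all tested genes, 15.3% and 15.0%, as dashed lines; antigen presentation reaches furthest to the left, with 17 of 25 members lower.

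The direction of a gene's change went with its length, in SNU216 with chromosomes 7 and 19 and in SNU601 with chromosome 18. RefSeq annotation (GRCh38.p14) matched 9259 of the 9341 named genes above the floor on all 8 arrays (99.1%). The files name no genome build, and only lengths and chromosomes were taken from the annotation for this comparison. Opposite genes that rose in SNU216 had a median length of 45.5 kb (n = 441), those that fell in SNU216 15.994 kb (n = 470), the shared rises 33.6 kb (n = 211), the shared falls 23.2 kb (n = 166), and all matched genes 27.4 kb. From the shortest to the longest quintile of genes, the median change ran through -0.10, -0.07, 0.04, 0.07 and 0.07 in SNU216, and through 0.01, 0.02, -0.01, -0.02 and -0.04 in SNU601. Of the shortest quintile 13.3% were higher and 27.9% lower in the interaction, and of the longest quintile 28.1% and 13.8%. With each member set against its own quintile of lengths, the median interaction of antigen presentation was -0.54, of histones -0.46, of mitosis -0.30 and of aminoacyl-tRNA synthetases 0.24.

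Chromosomes 7 and 19 had the lowest medians in SNU216. The 446 genes of chromosome 7 had a median change of -0.28 in SNU216, with -0.32 to -0.28 over the 4 pairings of a CD133+ with a CD133- array, and a median near 0 in SNU601. The 678 genes of chromosome 19 had -0.29 and 0.04. The fall was present in each quintile of gene length, from -0.37 to -0.25 on chromosome 7 and from -0.32 to -0.23 on chromosome 19. Of the 470 opposite genes that fell in SNU216, 117 (24.9%) lay on these 2 chromosomes, against 7 of the 441 that rose there (1.59%) and 12.1% of all matched genes, and 353 lay elsewhere. Of the genes of chromosome 19 41.9% were lower in the interaction, and of chromosome 7 39.7%. In SNU601 the 105 genes of chromosome 18 had a median of -0.19, with 0.10 in SNU216, and 39.0% of them were higher in the interaction. Without chromosomes 7 and 19, the SNU216 medians by length ran from -0.07 in the shortest to 0.10 in the longest quintile. Whether length or chromosome has a part in the results above was not tested.

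**Figure D4:**
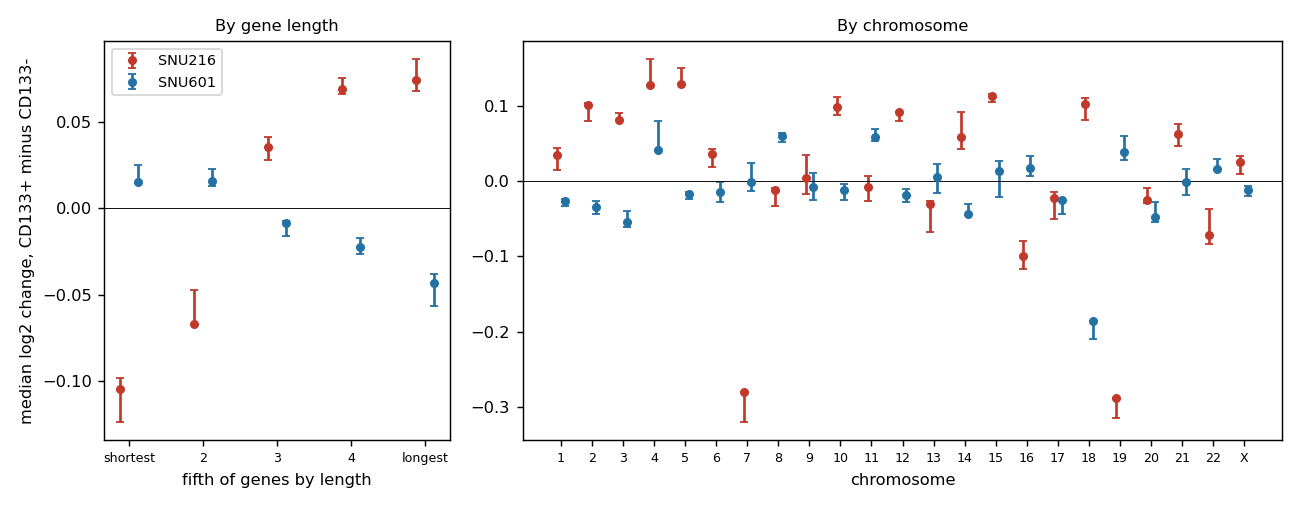
Median log2 change from CD133- to CD133+ cells by quintile of gene length (left) and by chromosome (right) over 9259 genes, in SNU216 (red) and SNU601 (blue). Whiskers span the medians of the 4 pairings of single arrays; SNU216 rises with length and drops on chromosomes 7 and 19, and SNU601 drops on chromosome 18.

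In KATO-III, the remaining line of the study, 18.0% of the tested genes rose with CD133 and 21.2% fell. Of the 527 that rose in SNU216 and fell in SNU601, 143 rose and 179 fell in KATO-III, and of the 583 with the reverse pattern 125 rose and 282 fell, with medians of -0.03 and -0.19. Of the 259 shared rises 129 rose in KATO-III as well and 42 fell, and of the 202 shared falls 35 rose and 88 fell. KATO-III has its own arrays, and it shares with the other lines the estimate of the spread between arrays.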

How the data were processed

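Per the labels and the study's methods, the authors hybridized amplified RNA to Illumina HT-12 v3 BeadChips and deposited quantile-normalized intensities, 1 row for each gene symbol. The submitters' processing notes name BeadStudio. The intensities are linear and background-subtracted, as seen in the values, of which 32.11% were at or below 0 on the 8 arrays. The rule for combining probes into genes is not given in the sources used here. Precision is limited by the number of arrays. Of 34688 rows 93 are empty. The design had assumed log2 values. Because the file is linear, each intensity below 32.7, the absolute value of the 1st percentile, was raised to 32.7 before logarithms to base 2 (log2). This floor was chosen with the values known, and it understates the differences of dim genes. All 12 columns of the table were used (0 columns not used).

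Genes above the floor on at least 2 of the 8 arrays were fitted with limma 3.58.1 in R 4.3.3 on all 12 arrays, with a mean per population and a mean-variance trend, which left 6 residual degrees of freedom. P-values were adjusted after Benjamini and Hochberg over the 18936 genes tested, with a threshold of 0.05. Opposite genes had to pass in both lines with opposite signs and in the interaction, shared genes in both lines with the same sign. The number of genes exceeding the floor ranged from 16406 to 16474 among the arrays. The median SD between arrays of the same population was 0.14 on the log2 scale. The replicate numbers did not pair the arrays: deviations of same-numbered CD133+ and CD133- arrays correlated at r = 0.01 in SNU216 and -0.01 in SNU601.

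The genes and lists were chosen with earlier results of these data known. Named are PROM1, CDC2 and OVOL2; then, among genes above the floor on all 8 arrays and without a provisional symbol, the 10 opposite genes and the 8 shared genes of each direction with the largest change in the less responsive line and the 5 genes of each direction with the largest interaction; and from each list called members with the largest interaction and those among the opposite or shared genes. A few members that go against their list's direction were added after their values were seen. A few list members are not reported here. Simulated data had the real means and spread of 18936 genes. Of these, 200 changed by 1 (log2) in SNU216 alone and 200 by 1 in opposite directions. The interaction was called for 56.5% and 92% of them, with 16 false calls. Each simulated gene had the same mean in all populations before the change, and no floor was applied. Far fewer genes changed than were called in the real data, so these shares need not hold there. Alternatives covered the floor, the filter, the normalization, the arrays in the fit, the variance model, a least fold, replicate blocks and leaving out each array. Tables were made in Python 3.11.15 with pandas 2.3.3 and numpy 2.4.6, and figures with matplotlib 3.10.9.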

Additional observations from a re-analysis of the deposited data

Results flagged for a closer look

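The interaction itself tests whether the CD133 effect differs between the lines. It was called for 2890 genes that were higher in SNU216 and 2835 that were lower, of which 527 rose in SNU216 and fell in SNU601 and 583 did the reverse. Among the genes named above, the interaction (log2) was 4.18 for KRT13, 3.86 for SLC9A2, 3.02 for PCDH7, 2.89 for ENDOD1 and 2.74 for FAM69A. It was 2.02 for ABHD10, 1.85 for PHLPP2, 1.82 for TXNL4B, 1.79 for ZNF83, 1.71 for FABP5, 1.67 for CCDC58, 1.67 for ALDH1B1, 1.66 for WDR5B and 1.60 for SMG1. On the negative side it was -4.30 for NNMT, -2.75 for TLE2, -2.68 for CXCL1, -2.48 for HOXB8, -2.45 for NANOS3, -2.19 for REC8, -2.16 for TNFAIP8L1, -2.14 for STC1 and -2.12 for HOXC8. It was -1.88 for HIST1H3G, -1.86 for PRRT3, -1.76 for C1QTNF6 and -0.70 for OVOL2. Groups of 2 arrays are too small to look for a single array that stands apart.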

How the results depend on the processing

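Every count of genes stayed within 1.5 times its value under another floor or an offset, renewed quantile normalization, centred arrays, a fit of the 8 arrays alone, no mean-variance trend, robust estimation and the genes above the floor on all 8 arrays. With at least 1.5-fold required, 1845 and 1801 genes were higher and lower in the interaction, 1254 and 1226 in SNU216 and 568 and 488 in SNU601, and the opposite and shared classes held 53, 70, 42 and 24. Without the filter on dim genes, the opposite genes that rose in SNU216 numbered 346 and the shared falls 125, with more genes in the adjustment. Leaving out 1 array gave 2466 to 2566 and 2417 to 2551 in the interaction, 2285 to 2945 and 2119 to 2824 in SNU216, and 1164 to 1700 and 962 to 1554 in SNU601. The classes ranged over 326 to 434, 394 to 495, 176 to 215 and 115 to 170, where the lone array of a population is assumed to vary like the others. A replicate block within each line gave 2564 and 2527 in the interaction and 408, 447, 199 and 138 in the classes, although the numbers share no stated pairing. Of 5681 values of named genes under an alternative, 5414 kept their direction and call, 266 kept the direction without the call, and 1 turned: FGFR4 had an interaction of -0.24 with a floor of 100, where the cause was not tested. These 5681 values miss calls within a line for some opposite genes. ALDH1B1, for one, left its class with renewed quantile normalization and with centred arrays. Under how many alternatives each named gene kept its class is given above. The median interaction of metallothioneins moved from -0.06 to 0.33, and that of mucins from 0.18 to -0.11, over the genes above the floor on all 8 arrays. With 2 arrays in each population, small changes of single genes are beyond the precision.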
